A study of Mus musculus with 4 samples.

Results

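The regions described here are 543 broad stretches of open chromatin that hepatocyte nuclei showed 48 h after partial hepatectomy and that were largely uncalled in undamaged liver. They are the autosomal 48 h peaks of at least 4000 bp of which less than 50% of the length lay inside 0 h peaks. They were 543 of 6141 autosomal 48 h peaks of that length, or 8.84%, and 543 of all 155918 autosomal 48 h peaks. The domains were thus chosen by their measured peak length at 48 h and coverage at 0 h, and every difference between these time points is given as a description, with no test. The other 5598 broad 48 h peaks, at least 50% covered at 0 h, serve as the comparison and are called the other broad peaks.

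Hepatocytes were prepared by collagenase perfusion from livers of mice on a normal diet, 10-12 weeks old by the labels, and their nuclei were profiled by single-cell ATAC-Seq, which counts transposase cuts in open chromatin. The 0 h group is healthy, undamaged liver, and the other 3 groups were taken 48, 72 and 96 h after PHx (partial hepatectomy, the removal of most of the liver). Per the study's methods the mice were male C57BL/6J animals, each time point is 1 library, and the 0 h and 48 h libraries come from 1 hepatocyte preparation each, so liver, surgery and library cannot be told apart and no test between time points is possible. The libraries hold 136949314, 62553202, 25540258 and 15809769 counts at 0, 48, 72 and 96 h, in 3977, 3892, 4256 and 3224 nuclei with at least 1000 counts. Depth thus fell with time, and between 12.7% and 19% of the barcodes of a library also occurred in any given other one. With only barcodes found in 1 library the median level of the domains was 5.57, 18.1, 13.9 and 3.77 CPM (counts per 1000000 counts in autosomal peaks) in the 4 libraries, against 5.42, 17.9, 14 and 3.80 CPM with all nuclei.

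In the undamaged liver most hepatocytes rest, and after resection they re-enter the cell cycle while they go on secreting plasma proteins and making bile acids. Open chromatin usually forms narrow peaks at promoters and enhancers. Broad stretches are known from strongly transcribed gene bodies and from groups of neighbouring enhancers, often at genes that matter to the identity or state of the cell. EGFR, the receptor for epidermal growth factor and its relatives, and the factors named AP-1, which assemble from Jun and Fos proteins, are long-known parts of the regenerative response.

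The domains held together 3.60 Mb of the mm10 genome. Their median length was 5233 bp, the shortest had 4004 bp and the longest 43388 bp. The median domain had 34.5% of its length inside 0 h peaks, and 40 domains (7.37%) had no 0 h peak at all, against 32.4% of all autosomal 48 h peaks. Of the 543 domains, 482 (88.8%) overlapped a protein-coding gene of GENCODE vM21, as did 89.5% of the other broad peaks.

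Sequences from the domains show 2 kinds of content, promoters and intervals away from them. Promoters are given first, as the 250 bases upstream of a transcription start in RefSeq's GRCm38.p6 table, the build that mm10 denotes. Letters of 8 motifs were searched on both strands, and matches are in capitals: AP-1 TGANTCA, C/EBP TTGCGCAA, HNF4A CAAAGTCCA, FOXA TGTTTAC, STAT TTCNNNGAA, TEAD GGAATG, NFY CCAAT and E2F TTTCGCGC. None of these contains another. The 4 promoters were picked after their values were seen. Pcna, the sliding clamp of DNA replication, lies on chr2:132253181-132253430, minus strand, with 1 NFY match. Il1r1, the receptor of interleukin 1, lies on chr1:40266336-40266585, plus strand, with TEAD and NFY matches. Srxn1, which repairs oxidised peroxiredoxins, lies on chr2:152105274-152105523, plus strand, with 2 AP-1 matches. Zfp367, a zinc finger factor, lies on chr13:64153200-64153449, minus strand, with 3 NFY matches and 1 E2F match.
Pcna: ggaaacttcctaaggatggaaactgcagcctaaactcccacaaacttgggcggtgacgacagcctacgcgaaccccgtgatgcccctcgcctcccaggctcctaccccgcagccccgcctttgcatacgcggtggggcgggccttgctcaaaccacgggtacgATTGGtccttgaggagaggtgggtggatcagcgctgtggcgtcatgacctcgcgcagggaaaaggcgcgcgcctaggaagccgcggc
Il1r1: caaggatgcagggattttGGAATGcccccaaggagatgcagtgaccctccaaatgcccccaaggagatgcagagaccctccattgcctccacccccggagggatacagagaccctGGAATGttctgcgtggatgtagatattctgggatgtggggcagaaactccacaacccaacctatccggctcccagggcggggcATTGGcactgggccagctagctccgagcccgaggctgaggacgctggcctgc
Srxn1: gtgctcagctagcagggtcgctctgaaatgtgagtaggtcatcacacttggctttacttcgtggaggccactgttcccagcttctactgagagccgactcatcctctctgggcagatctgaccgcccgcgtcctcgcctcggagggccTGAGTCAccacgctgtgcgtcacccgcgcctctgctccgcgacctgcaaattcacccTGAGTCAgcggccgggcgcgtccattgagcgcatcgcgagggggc
Zfp367: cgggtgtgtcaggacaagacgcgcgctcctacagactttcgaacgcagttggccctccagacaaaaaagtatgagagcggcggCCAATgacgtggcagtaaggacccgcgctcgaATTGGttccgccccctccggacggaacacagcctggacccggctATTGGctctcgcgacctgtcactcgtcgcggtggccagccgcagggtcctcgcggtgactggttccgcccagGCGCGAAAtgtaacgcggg

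These 4 promoters lay wholly inside peaks in all 4 libraries. In all, 85 RefSeq promoters of 79 genes lay wholly inside a domain, and 62 of them (72.9%) were inside 0 h peaks, 77 (90.6%) inside 72 h peaks and 47 (55.3%) inside 96 h peaks. Of 2882 promoters wholly inside the other broad peaks, 98.7% were inside 0 h peaks, 97.7% inside 72 h peaks and 89.1% inside 96 h peaks. NFY letters occurred in 36.5% of the 85 promoters and in 33.9% of all 32851 promoters of the table, and AP-1 letters in 4.71% and 6.75%.

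The second kind of sequence is the 250-base window outside exons that holds most AP-1 letters of its domain, read on the plus strand of the mm10 chromosomes. The 4 domains, which differ in how much was called later, were picked after their values were seen. In none of these 4 windows was a base called at 0 h. The Egfr window is chr11:16886016-16886265, the one near Acnat2 is chr4:49373915-49374164, that of Zbtb20 is chr16:43450572-43450821 and that of Fndc3b is chr3:27481844-27482093.
Egfr: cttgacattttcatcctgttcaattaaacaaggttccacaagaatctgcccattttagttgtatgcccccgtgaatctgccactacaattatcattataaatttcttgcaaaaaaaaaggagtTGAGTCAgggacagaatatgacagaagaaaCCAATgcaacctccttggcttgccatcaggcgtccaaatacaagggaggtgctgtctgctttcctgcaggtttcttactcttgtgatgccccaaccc
near Acnat2: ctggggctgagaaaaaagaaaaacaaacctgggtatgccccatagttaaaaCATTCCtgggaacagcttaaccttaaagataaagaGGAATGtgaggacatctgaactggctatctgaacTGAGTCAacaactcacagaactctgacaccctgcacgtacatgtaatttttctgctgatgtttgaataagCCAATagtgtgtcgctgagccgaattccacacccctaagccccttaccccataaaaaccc
Zbtb20: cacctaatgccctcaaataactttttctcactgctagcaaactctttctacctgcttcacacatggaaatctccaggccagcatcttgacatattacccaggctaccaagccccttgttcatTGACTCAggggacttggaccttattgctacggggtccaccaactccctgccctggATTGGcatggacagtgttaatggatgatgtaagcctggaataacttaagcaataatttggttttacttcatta
Fndc3b: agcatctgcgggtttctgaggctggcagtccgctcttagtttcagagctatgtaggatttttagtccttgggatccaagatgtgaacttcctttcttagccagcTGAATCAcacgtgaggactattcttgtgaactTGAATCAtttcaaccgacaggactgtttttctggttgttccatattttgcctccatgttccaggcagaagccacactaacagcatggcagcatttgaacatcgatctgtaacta

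The windows of Egfr and of the stretch near Acnat2 lay wholly inside 72 h and 96 h peaks. The Zbtb20 window had 5.60% of its bases in 72 h peaks and the Fndc3b window 68.4%, and neither had any in 96 h peaks. The whole Egfr domain holds 16 AP-1 matches, or 0.369 per kb, and the Fndc3b domain 8, or 0.576 per kb. The stretch near Acnat2 holds 1, or 0.215 per kb, and the Zbtb20 domain 2, or 0.178 per kb.

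The median base composition of the domains was close to that of the other broad peaks. The median domain had 49.0% G and C bases, against 48.6% in the other broad peaks, and the interval of the domains' median (48.0% to 49.7%) held the latter. AP-1 letters stood at 0.301 per kb in domains, 0.298 in the other broad peaks and 0.320 in all autosomal 48 h peaks. HNF4A letters, bound by a master factor of hepatocytes, stood at 0.0153, 0.0203 and 0.0248 per kb in the same order, and FOXA letters at 0.128, 0.145 and 0.160. CG dinucleotides, which mark promoter islands, were at 0.240 of the number expected from base content in the domain bases outside 0 h peaks and at 0.318 in those inside them. These are shares of letters, and a match is not evidence of binding.

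The level of a domain is given in CPM, its counts scaled by all counts in autosomal peaks of that library. Counts exist only inside the peaks called in each library, so a library without a peak in a stretch gives 0 there, which does not measure how closed it was. The median level of the domains was 5.42 CPM at 0 h, 17.9 at 48 h, 14 at 72 h and 3.80 at 96 h (n = 543), and that of the other broad peaks 40.2, 37.7, 34.7 and 37.6 CPM (n = 5598). The 0 h median was 8.43 CPM with binarised counts, and the 96 h median 2.39 CPM with libraries scaled to regions of near-equal peak length. Summed, the domains took 0.467%, 1.38%, 1.08% and 0.610% of the autosomal counts. The domains thus held few of the counts at every time.

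Per called kb the picture was different. At 48 h the median domain had 3.17 CPM per kb, against 6.22 in the other broad peaks, and the lowest domain had 2.07. With each library's counts divided by its own called length, density at 48 h was above that at 0 h in 302 of 503 domains with a 0 h peak (60.0%) and in 1923 of 5598 other broad peaks (34.4%), and the median log2 ratio was 0.13, against -0.14 in the other broad peaks. Binarised counts put the median level at 8.43 CPM at 0 h and 18.5 CPM at 48 h, and density was not computed on them. At 96 h the median density in called bases was 11.3 CPM per kb in domains and 14.4 in the other broad peaks. The 96 h library was also the shallowest, and the part of depth in this was not tested.

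Egfr held the longest domain and the one with the highest level. It runs over chr11:16879936-16923323, 43388 bp across the 3′ part of the gene, and contains the start of a shorter annotated Egfr transcript. Its level was 23.3 CPM at 0 h (95% Poisson interval 22.2 to 24.5), 689 CPM at 48 h (680 to 698), 365 CPM at 72 h (354 to 376) and 241 CPM at 96 h (230 to 253). These intervals cover counting error only, here and below. The 0 h library held 11 separate peaks over 19.3% of the stretch, the 72 h library 1 peak over 97.2% and the 96 h library 13 peaks over 55.1%. Per called kb the domain stood at 15.9 CPM at 48 h, the highest density of all 543, and at 2.79, 8.65 and 10.1 CPM at 0, 72 and 96 h. With counts binarised, so that a peak counts at most once in a nucleus, its level was 35.0, 127, 181 and 238 CPM, and the order of the 3 later times turned. Every domain is 1 peak at 48 h by the rule. A binarised level thus also depends on how many peaks another library holds in the stretch, here and below.

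Cyp7a1, the rate-limiting enzyme of bile acid synthesis, came next. Its domain, chr4:6257861-6276442 with the gene's start inside, had 38.0 CPM at 0 h, 205 at 48 h, 145 at 72 h and 214 at 96 h. The 96 h level (interval 204 to 225) overlapped the 48 h level (200 to 210), and 70.1% of the domain was still called at 96 h. With the near-equal-length scaling the 96 h level was 135 CPM, below the 205 CPM of 48 h. Onecut1, the hepatocyte nuclear factor also named HNF6, had 105, 186, 130 and 120 CPM over 29255 bp that include its start.

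A further 6 of the highest by 48 h level stood between 111 and 132 CPM at that time. The Mrap and Urb1 domain had 71.1, 132, 107 and 82.6 CPM. That of Nek6 and Psmb7, a mitotic kinase and a proteasome subunit, had 43.5, 119, 100.6 and 31.0 CPM, and only 8.64% of it was called at 96 h. Mfsd2a, a lysophospholipid transporter, had 47.9, 118, 97.0 and 88.8 CPM. Adamts1, a secreted protease, had 82.6, 117, 119 and 105 CPM. The Pcna and Tmem230 domain had 49.3, 116, 65.6 and 65.8 CPM. The stretch with Bicdl2, Thoc6, Hcfc1r1 and Tnfrsf12a, the receptor of the cytokine TWEAK, had 60.4, 111, 98.4 and 66.8 CPM. All 9 named so far were above their 0 h level at 72 h. At 96 h all but that of Nek6 and Psmb7 were, but with the near-equal-length scaling those of Onecut1, Mrap, Adamts1, Pcna and Tnfrsf12a were below it too. Onecut1 then had 97.1 CPM at 0 h and 75.6 CPM at 96 h. With binarised counts the order of 48 and 96 h turned, with more at 96 h, for Onecut1 (91.8 and 107 CPM), Mrap, Mfsd2a, Adamts1, Pcna and Tnfrsf12a. Among the 10 longest were also Abhd2 with 20590 bp, and Arid5a and Aacs with 19808 bp each.

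**Figure D1:**
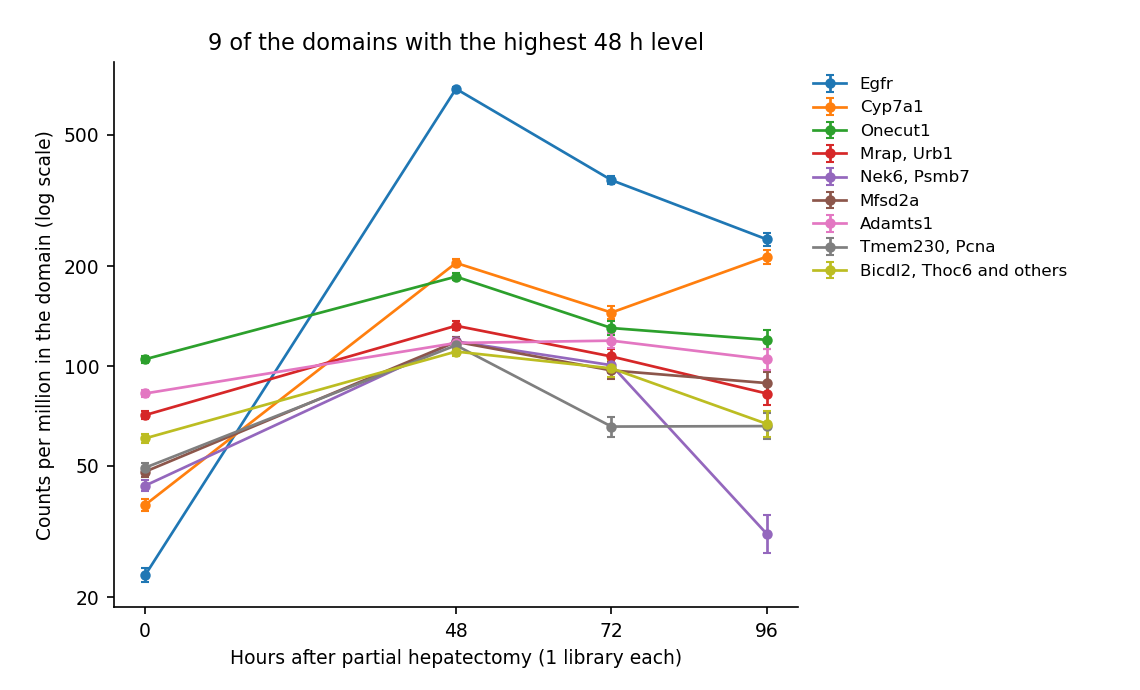
Level in CPM of 9 of the domains with the highest 48 h level (y axis, log scale) against hours after partial hepatectomy (x axis), 1 library per time point, bars being 95% Poisson intervals. Egfr goes from 23.3 at 0 h to 689 at 48 h and 241 at 96 h, while Cyp7a1 stands at 205 at 48 h and 214 at 96 h.

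Coverage by later peaks was not used by the rule. At 72 h, 324 of the 543 domains (59.7%, exact binomial interval 55.4% to 63.8%) were at least 50% covered. The background was 59.6% of all autosomal 48 h peaks and 91.5% of the other broad peaks. The median domain was covered over 55.7% of its length, 64 domains (11.8%) were at least 90% covered, and 3 had no 72 h peak. Counting only bases outside 0 h peaks, 213 domains (39.2%, 35.1% to 43.5%) were at least 50% covered. So were 715 of 4040 other broad peaks with such bases (17.7%, 16.5% to 18.9%), and the order of the sets turned. The bases compared are unlike, though. The median domain was 34.5% covered at 0 h and the median other broad peak 97.1%, so the latter held few such bases.

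At 96 h, 4 domains (0.737%, interval 0.201% to 1.88%) were at least 50% covered, against a background of 20.4% of all autosomal 48 h peaks and 32.8% of the other broad peaks. No 96 h peak at all was found in 185 domains (34.1%), against 3.89% of the other broad peaks. On bases outside 0 h peaks alone, the shares at least 50% covered at 96 h were 0.737% of domains (0.201% to 1.88%) and 0.0990% of the other broad peaks (0.0270% to 0.253%), with overlapping intervals. The 4 were the Egfr and Cyp7a1 domains, a 4652-bp stretch 31835 bp from the start of Acnat2, an acyltransferase gene related to the bile acid conjugating enzyme Baat, and the domain over Tpr and Prg4. Prg4 encodes lubricin, a secreted proteoglycan, and its domain had 4.0, 53.2, 87.9 and 143 CPM, higher at each later time also with binarised counts and the near-equal-length scaling, with 94.8% called at 96 h. The stretch near Acnat2 had 0.282 CPM at 0 h, where 2.90% of it was called, and then 29.98, 29.9 and 36.7 CPM, or 23.1 CPM at 96 h with the near-equal-length scaling. Of the 109 domains with the highest 48 h level, the one over Gm16332 came next and was 42.8% covered.

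**Figure D2:**
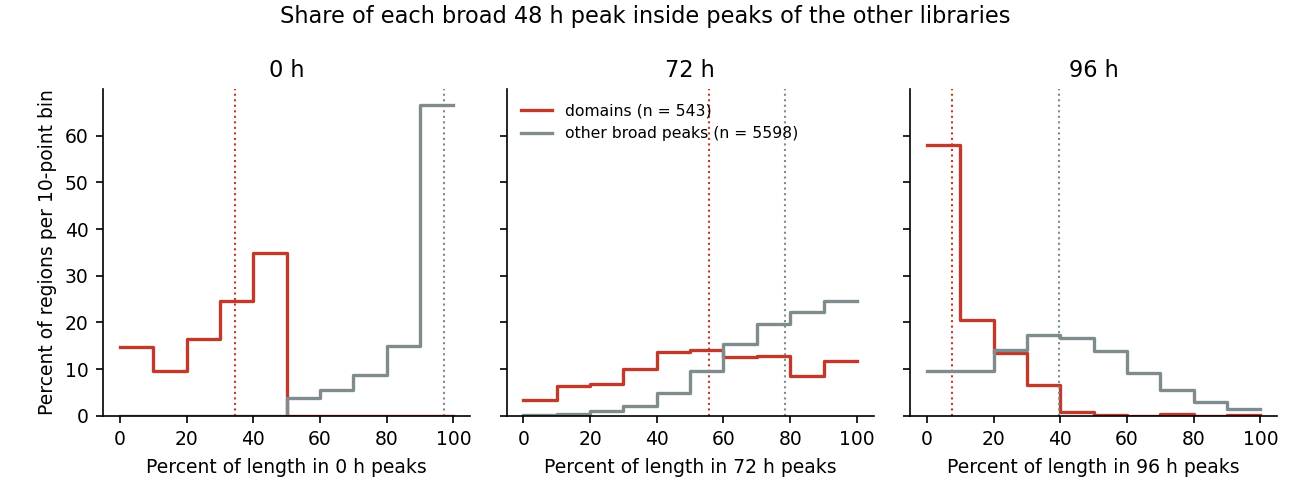
Percent of the length of each broad 48 h peak that lies inside 0, 72 and 96 h peaks (x axes), as the percent of regions in each 10-point bin (y axis), for the 543 domains and the 5598 other broad peaks, with dotted lines at the medians. The rule fixes the 0 h panel, and the domains' medians are 34.5% at 0 h, 55.7% at 72 h and 7.61% at 96 h.

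Because domains were lower per kb than other broad peaks, coverage was also compared within classes of 48 h density. Among regions under 3 CPM per kb, 48.7% of 230 domains and 58.4% of 250 other broad peaks were at least 50% covered at 72 h, with overlapping intervals (42.1% to 55.3% and 52.0% to 64.6%). From 3 to 4 CPM per kb the shares were 62.8% of domains and 75.8% of other broad peaks (55.4% to 69.9% and 72.4% to 79.0%). From 4 to 6 they were 75% of 108 domains (65.7% to 82.8%) and 90.02% of 1663 other broad peaks (88.5% to 91.4%). In both of these classes the intervals do not overlap. At 96 h, regions under 3 CPM per kb were never 50% covered in either set, where the upper limits are 1.59% and 1.46%. From 4 to 6 CPM per kb the 96 h shares were 0.926% and 7.34%, and above 6 CPM per kb they were 13.6% of 22 domains and 56.4% of 3011 other broad peaks. From 3 to 4 CPM per kb they were 0 and 2.37%. Under 3 CPM per kb both sets were at the floor, so no gap could show there. The class above 6 CPM per kb has no upper limit, and reaches 15.9 in domains and 431 in the other broad peaks. Coverage here includes bases called at 0 h, by whose share the rule split the sets.

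**Figure D3:**
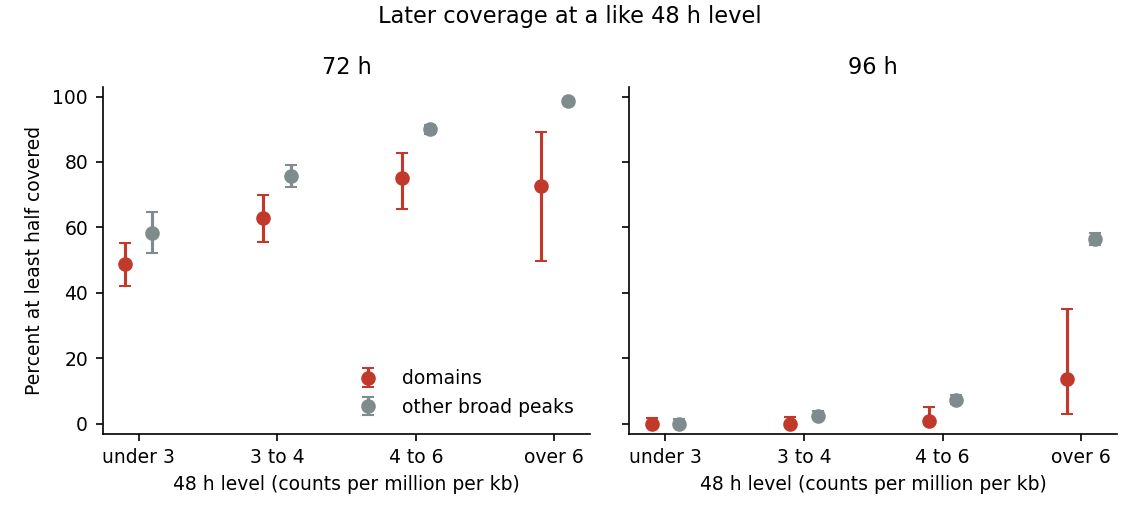
Percent of domains and of other broad peaks that are at least 50% covered by 72 h and 96 h peaks (y axis), in 4 classes of 48 h level per kb (x axis), with exact binomial 95% intervals over regions. At 96 h both sets are at 0 below 3 CPM per kb and differ above 6, at 13.6% and 56.4%, in a class with no upper limit.

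Coverage at later times also ran with coverage at 0 h. It can include the bases called at 0 h, so part of this follows from how the classes were cut. The 40 domains with no 0 h peak had a median of 12.2 CPM at 48 h and 6.71 CPM at 72 h, 14 of them (35.0%) were at least 50% covered at 72 h, and 34 (85.0%) had no 96 h peak. The 370 domains covered over 25 to 50% at 0 h had medians of 19.6 and 17.2 CPM at 48 and 72 h. Of these, 248 (67.0%) were at least 50% covered at 72 h and 83 (22.4%) had no 96 h peak. The largest of the 40 with no 0 h peak was that of Arhgef26, a guanine nucleotide exchange factor. It had 38.5 CPM at 48 h, 10.3 CPM at 72 h and no 96 h peak. A Zbtb20 domain of 11260 bp had 32.9 and 7.20 CPM at 48 and 72 h, and E2f8, a repressor of the E2F family, had 27.8 and 2.25 CPM.

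Among the 109 domains with the highest 48 h level, 8 had no 96 h peak. The longest was in Man2a1, a Golgi mannosidase, with 14.1, 65.3 and 30.5 CPM at 0, 48 and 72 h. Hao1, a liver glycolate oxidase, had 9.75, 46.4 and 46.9 CPM. Igf1, the circulating insulin-like growth factor made by hepatocytes, had 3.83, 39.2 and 6.84 CPM, over a stretch that was 54.2% exonic. B4galt1, a galactosyltransferase, had 5.24, 29.9 and 4.38 CPM. The others were in Zbtb20, Ctif, Eif5b with Rev1, and Arhgef26. Hao1 was thus near its 48 h level at 72 h, while Igf1 was then between its 0 h and 48 h levels and B4galt1 below its 0 h level.

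Some domains were higher later than at 48 h. At 72 h, 148 (27.3%) were above their 48 h CPM, against 32.4% of the other broad peaks, and at 96 h, 26 (4.79%), against 43.4%. With the near-equal-length scaling these were 81 domains (14.9%) and 12.1% at 72 h, and 2 domains (0.368%) and 4.81% at 96 h. With binarised counts they were 163 domains and 50.1% at 72 h, and 50 domains (9.21%) and 58.8% at 96 h. Aacs, which activates acetoacetate for lipid synthesis, had 2 neighbouring domains. The longer had 11.9, 109, 185 and 76.5 CPM and the other 28.3, 67.8, 120 and 34.4 CPM, so both peaked at 72 h and were called over 100% and 99.8% of their length then. A Baiap2 domain had 20.6, 33.8, 70.9 and 13.0 CPM, and one in Myl12b, a myosin light chain, had 4.08, 15.4, 43.8 and 2.71 CPM. Among domains above their 48 h level at 96 h, the highest besides Cyp7a1 and Prg4 was at Pfkfb3, a regulator of glycolysis, with 59.9, 79.4, 79.6 and 91.9 CPM, but 57.9 CPM at 96 h with the near-equal-length scaling.

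Genes with a domain were longer than other genes, and domains held gene starts less often than the other broad peaks. The 473 autosomal protein-coding genes with a domain, 2.28% of 20780, had a median length of 42.1 kb, against 17.6 kb for all of them and 24.5 kb for genes with another broad peak. A start of any transcript of a protein-coding gene lay in 185 domains (34.1%, 30.1% to 38.2%), against 57.0% of the other broad peaks. With the gene record's own start only, the shares were 17.7% and 43.1%. The end of a gene record lay in 157 domains (28.9%) and in 25.1% of the other broad peaks. Domains wholly inside 1 gene were centred at a median of 66.9% of the way from start to end (n = 261), and the other broad peaks at 47.2% (n = 2027). A further 297 domains (54.7%) lay in a protein-coding gene with no start, 21 in other GENCODE genes only and 40 between genes.

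Some genes carried several domains, 70 of them at least 2 and 27 at least 3. Fndc3b, a membrane protein with fibronectin repeats, carried 9 over 295 kb, with summed levels of 51.8, 234, 142 and 113 CPM. Adgrl2, an adhesion receptor, carried 7, with 24.3, 131, 93.9 and 33.3 CPM. Zbtb20, a repressor of alpha-fetoprotein in adult liver, carried 6, with 24.9, 144, 43.8 and 14.3 CPM. Pid1 also carried 6, and B3galt1 carried 5 with 18.3, 120, 26.4 and 3.80 CPM. At 96 h Fndc3b was above 0 h and Zbtb20 and B3galt1 were below it, also under both scalings. Pid1 had 42.0, 128, 84.2 and 58.6 CPM, but 38.9 CPM at 0 h and 36.9 CPM at 96 h with the near-equal-length scaling, and Adgrl2 then had 22.5 and 21.0 CPM. The 4 domains given to Fgfr2 lie in a gene record of 2961 kb and the 4 of Gm20388 in one of 4435 kb, so these overlaps may belong to other genes. Another domain lay within 20 kb of 169 domains (31.1%), and another broad peak within 20 kb of 224 (41.3%).

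The gene lists, read against 2.28% of all autosomal protein-coding genes, were as follows. The genes of a list can be longer than the median gene, and the lists were chosen with results of these data known, so the counts describe and do not test. Of 20 growth factor and cytokine receptors, 5 had a domain, in genes of a median 95.1 kb. Beside Egfr and Tnfrsf12a these were Prlr, Il1r1 and Notch2. Prlr, the prolactin receptor, had 9.23, 48.5, 5.77 and 3.53 CPM in its main domain. Il1r1 had 4 domains, and the one at its start had 19.5, 45.7, 22.4 and 23.1 CPM. At 72 h this domain of Prlr was thus below its 0 h level and that of Il1r1 near it, while another Il1r1 domain, of 7691 bp, had 3.50, 26.3, 6.47 and 9.76 CPM.

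Of 24 bile acid and cholesterol genes, 3 had a domain. Cyp7b1, the enzyme of the alternative bile acid pathway, had 4 domains, and the highest had 14.6, 30.02, 11.1 and 8.47 CPM. Acnat2 had a domain in its gene with 3.58, 12.6 and 3.44 CPM and no 96 h peak, unlike the stretch near it. Of 22 acute phase genes, 3 had a domain. Saa2, serum amyloid A, had 5.17, 23.6, 12.9 and 4.0 CPM. Lcn2, an iron-sequestering lipocalin, had 12.4, 24.7, 22.8 and 20.3 CPM. Fgl1, a secreted fibrinogen-like protein, had 8.92, 47.4, 5.85 and 37.7 CPM, so it was low at 72 h and high at 48 and 96 h. A stretch near Fgl1 with no 0 h peak showed the same order, with 20.2, 1.80 and 19.3 CPM from 48 to 96 h.

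Onecut1 was the only one of 22 hepatocyte transcription factors with a domain, while 21 of them had another broad peak, already at least 50% covered at 0 h, as had 20.5% of all autosomal protein-coding genes. None of 20 immediate early and AP-1 genes and none of 17 urea cycle and amino acid genes had a domain, and 19 and 14 of them had another broad peak. Myh9, nonmuscle myosin, was the only one of 22 cytoskeleton and adhesion genes, with 3 domains, of which the longest had 14.8, 49.1, 31.5 and 12.7 CPM. Of 20 glucose and fat metabolism genes Pfkfb3 had domains, and of 14 cytochrome P450 genes Cyp3a13 did, with 14, 34.3, 9.21 and 17.4 CPM.

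Of 20 cell cycle genes only Pcna had a domain. The next 3 genes are on no list and were picked after their values were seen, so they stand for no group. Hmgb2, a chromatin protein of dividing cells, shared a domain with Galnt7 at 3.84, 44.7, 10.4 and 10.2 CPM. Uhrf1, which keeps DNA methylation through replication, had 2.28, 25.9, 2.78 and 3.19 CPM. Chaf1a, a histone chaperone of replicating DNA, shared a domain with Ubxn6 at 6.39, 24.5 and 3.19 CPM and no 96 h peak.

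Nuclei of the 48 h library were clustered without the domains, and 4 clusters of 793 to 1107 nuclei had the hepatocyte markers, at 5424 to 6562 CPM summed over 10 genes. The remaining cluster of 218 nuclei, with a median of 2104 counts, had 1519 CPM of them, against 6122 in the rest, and led with Cdh5 and Clec1b among others. It had 6 of 10 endothelial and 3 of 5 Kupffer and myeloid markers at least 2-fold up, is shallow, and is left unnamed. Clusters low in hepatocyte markers held 310, 218, 355 and 0 nuclei in the 0, 48, 72 and 96 h libraries. Domains took 1.20% to 1.55% of the counts of the hepatocyte clusters and 1.38% of those of the low cluster. The lowest value was in cluster 1, led by the pericentral genes Glul and Cyp2e1, where 333 of the 543 domains had their lowest level among the 4. At a finer resolution (1.0) there were 2 clusters led by Glul, with 1.17% and 1.46%, so the low share was not common to both. Only the first also had Cyp2e1 among its leading genes. Their depths differed too, with medians of 26640 and 8819 counts. Cluster 0 was highest in 258 domains, and was also the shallowest of the 4, with a median of 6809 counts. The part of depth in this was not tested.

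Between the hepatocyte clusters, 72 domains (13.3%) differed at least 2-fold, against 4.88% of the other broad peaks, which unlike the domains were used to cluster the nuclei. Among regions within the domains' quartiles of 48 h level, a match chosen after seeing the data, the shares were 12.2% of 271 domains and 7.11% of 1266 other broad peaks. Egfr had 921, 713, 784 and 377 CPM in clusters 0 to 3. The domain of Hmgb2 had 46.8, 24.3, 65.7 and 21.6 CPM, that of E2f8 26.1, 23.0, 39.2 and 12.7 CPM, and that of Uhrf1 35.4, 19.7, 32.5 and 14.1 CPM. All of them were lowest in cluster 3 and high in clusters 0 or 2, as was the Pcna domain with 137, 97.4, 143 and 64.3 CPM. Hmgb2 is among the genes that lead cluster 2, but that ranking counted the peaks of the domains, so it is no separate evidence. The opposite held for Cyp3a13, with 29.6, 28.4, 25.9 and 59.0 CPM, and for the domain of Baiap2 and Aatk, with 53.7, 41.5, 51.5 and 94.2 CPM, both highest in cluster 3.

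In the low cluster, 69 domains (12.7%) were at least 2-fold above the hepatocyte clusters with an interval clear of them, against 5.81% of the other broad peaks. Within the same quartiles of 48 h level the shares were 12.9% and 9.56%. Rasgef1b had 232 CPM there (187 to 283) and 25.4 in the hepatocyte clusters, and Hmox1, which degrades haem and is high in Kupffer cells, had 211 and 48.8 CPM. Csf1r, the macrophage growth factor receptor, shared a domain with Hmgxb3 at 113 and 22.7 CPM. Stab1, a scavenger receptor of sinusoidal endothelium, shared one with Nisch at 64.6 and 20.8 CPM, and Myh9 had 137 and 47.9 CPM. Csf1r and Stab1 are on the myeloid and endothelial marker lists that described this cluster above. Those lists counted the peaks of the domains too, so these 2 levels are no separate evidence. Of these 69 domains 60.9% were at least 50% covered at 72 h, as were 59.5% of the other 474. Egfr, at 178 against 696 CPM, and Cyp7a1, at 70.7 against 207 CPM, were higher in the hepatocyte clusters. In the whole library, fewer nuclei of a type and fewer cuts per nucleus cannot be told apart.

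**Figure D4:**
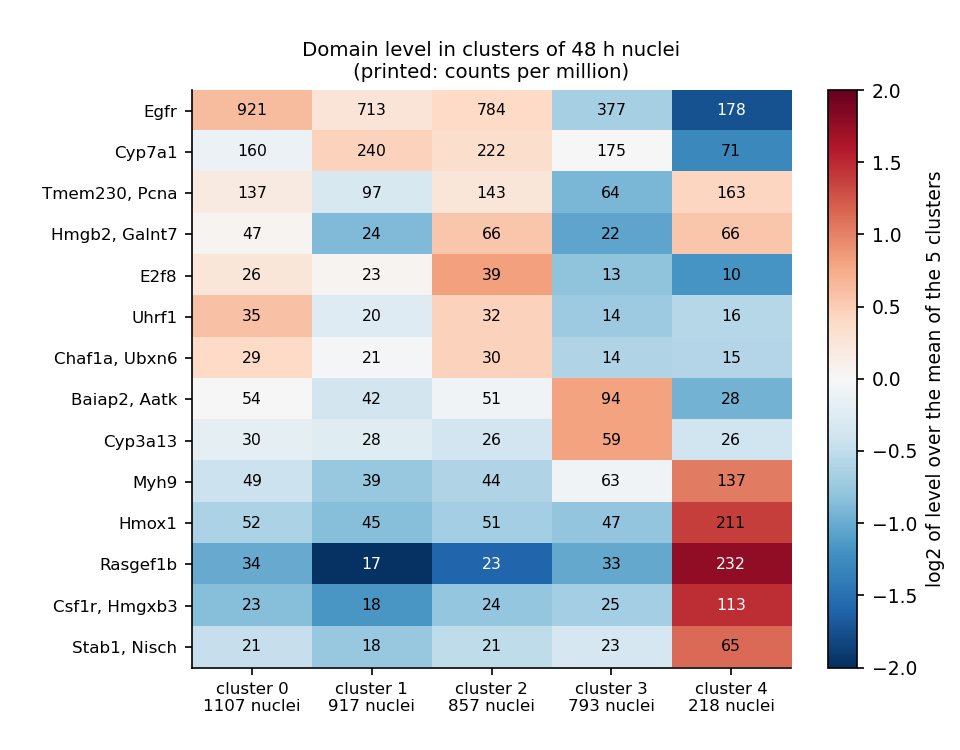
Level of 14 domains in the 5 clusters of 48 h nuclei, printed as CPM in each cell and coloured by the log2 of the level over the mean of the 5 clusters, with the genes of each domain on the y axis and the clusters with their nuclei on the x axis. Cluster 4, with 218 nuclei and low hepatocyte markers, is highest for Rasgef1b at 232 and lowest for Egfr at 178.

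In each hepatocyte nucleus drawn down to 3000 counts the domains held 42.2 counts on average, with an SD over nuclei of 9.95 (n = 3291 nuclei, 383 shallower ones left out). The 5th and 95th percentiles of nuclei were 26 and 59 counts. The coefficient of variation was 23.6%, and 6.12% for the other broad peaks, which held 973 counts and so vary less by counting alone. The variance over the mean was 2.35 for the domains and 3.64 for the other broad peaks, the opposite order. At a like relative spread this ratio rises with the mean, so neither measure compares the sets evenly.

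The domains were spread unevenly over chromosomes. On chromosome 3 they were 13.6% of the broad 48 h peaks, on chromosome 2 12.8%, on chromosome 11 4.53%, and on chromosome 19 0 of 123, which allows up to 2.96%. The chromosomes' shares of all autosomal counts differed between the libraries too. Chromosome 19 took 3.06% of them at 0 h and 2.23% at 48 h, a ratio of 0.727, and chromosome 2 took 7.78% and 8.70%, a ratio of 1.12. In peaks whose lengths at 0 and 48 h were within 1.1-fold, the ratios were 0.868 and 1.04. Over the 19 autosomes the percent of domains and the ratio over all counts had a Pearson r of 0.798 and a Spearman rho of 0.549, and 0.643 and 0.470 without chromosome 19, left out after seeing the data. With the near-equal-length ratio they were 0.729 and 0.581. All points share the same 2 libraries, so this is a description. The part of such chromosome-wide differences in the domains was not tested. By base content, 15.3% of the broad peaks under 40% G and C and 11.9% of those above 55% were domains, against 7.51% between 45% and 50%.

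**Figure D5:**
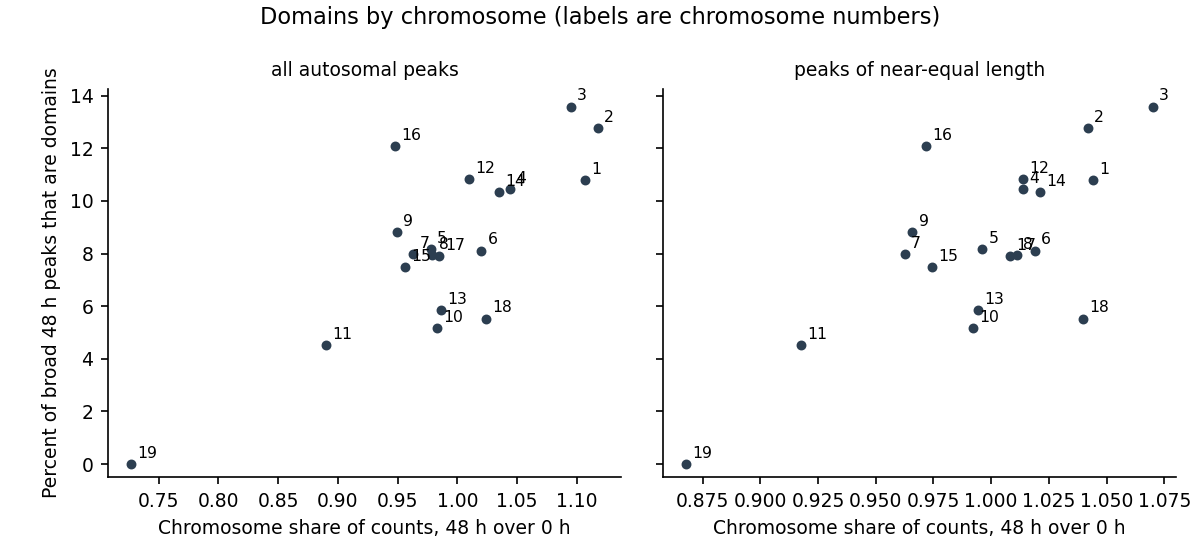
Percent of the broad 48 h peaks of each autosome that are domains (y axis) against the chromosome's share of autosomal counts at 48 h over that at 0 h (x axis), in all peaks and in peaks of near-equal length at both times. Chromosome 19 has no domain and the lowest ratio in both panels, 0.727 and 0.868, and chromosomes 1, 2 and 3 lie at the upper right.

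The rule's limits fell within a continuous range. The 3 domains nearest to 50% coverage at 0 h were in Papola, Csf1 and Aacs, with 49.94% to 49.99% covered and 11.6, 12.9 and 67.8 CPM at 48 h. The 3 just outside were in Mical3, Srcap and Zbtb7c, with 50.1% covered each and 29.5, 9.92 and 20.6 CPM. The 3 shortest domains, of 4004, 4005 and 4008 bp, were in Fndc3b, Pid1 and Raver1 with 13.0, 12.3 and 10.2 CPM. The 3 just too short, of 3982 to 3998 bp, were in Akap13, near Klf2 and near Zfp184, with 16.4, 8.97 and 23.9 CPM.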

How the data were processed

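The deposited files are a peak list, a barcode list and a matrix of counts for each library, made by the authors with Cell Ranger ATAC (version 1.1.0 per the file headers) on mm10 per the labels. Peaks were called in each library separately, and the deposited counts are cut sites per peak and barcode. Counts were summed over nuclei with at least 1000 counts, split by overlapping length and divided by the total in autosomal peaks to give CPM. Poisson intervals (95%) used counts divided by 2, since most fragments count at both ends. Coverage is the percent of a domain's bases inside peaks of another library, with exact binomial intervals over regions. Genes were those of GENCODE vM21. Nuclei were clustered per library on autosomal peaks other than domains (TF-IDF, 30 components, 30 neighbours, Leiden resolution 0.5; leidenalg 0.10.2, scipy 1.17.1), and clusters with at least 0.5 of the hepatocyte marker CPM of the other nuclei were called hepatocyte clusters, a limit set after seeing the values. No doublet caller was run. Domains named by rule are the 10 highest, the 10 longest, the 5 most and 5 least covered at 96 h among the 109 with the highest 48 h level (8 tied at no coverage), those at the limits, those in listed genes and genes with several domains. Others were picked after their values were seen, by later level (Baiap2, Myl12b, the stretch near Fgl1), by cluster (Rasgef1b, Hmox1, Csf1r, Stab1), for coverage at 0 h (E2f8), for a gene in them (Hmgb2, Uhrf1, Chaf1a) or for a promoter (Srxn1, Zfp367). A domain that these rules name is not reported here. The members and lists were chosen with earlier results of these data known. Intervals and coverage were checked on simulated data.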

Additional observations from a re-analysis of the deposited data

How the results depend on the processing

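With a minimum length of 3000 bp there were 969 domains and with 5000 bp 303, and with a limit of 25% at 0 h 173, against 543. On bases outside 0 h peaks alone, 39.2% of domains were at least 50% covered at 72 h, against 59.7%. With only later peaks wholly inside a domain, the 72 h median was 9.41 CPM and the median log2 ratio of 72 h to 48 h -0.76, against 14 and -0.39. With libraries scaled to 8741 regions of near-equal peak length (within 1.5-fold, a tolerance set after seeing that 1.1 left few regions), the medians were 12.1 CPM at 72 h and 2.39 CPM at 96 h, and the log2 ratios to 48 h -0.61 and -1.78, against -0.39 and -1.11. The ratio at 96 h covers only the 355 domains with counts there. With binarised counts the 0 h median was 8.43 CPM and the log2 ratio at 72 h -0.29. A start of the gene record lay in 17.7% of domains, against 34.1% for any transcript. At Leiden resolution 1.0 the domains took 1.17% to 1.63% of the counts of hepatocyte clusters, against 1.20% to 1.55%. The cause of these shifts was not tested. None of these medians changed direction, but single domains did. Under the near-equal-length scaling 24 domains turned between 48 and 96 h, 106 between 0 and 96 h and 67 between 48 and 72 h, and with binarised counts 24, 38 and 41 did. The other alternatives, among them nuclei with at least 3000 counts and barcodes found in 1 library only (chosen after seeing the data), moved values by less than their intervals, or counts by less than 1.5 times. No paired analysis was possible because each time point is 1 library. The 96 h library, with 15809769 counts, had 760 autosomal peaks of at least 4000 bp, against 5242 at 0 h and 3205 at 72 h, and the part of depth was not tested.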
